A study of Mus musculus with 5 samples.

Results

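Krt8, Cd44, S100a6, Anxa10 and Sdc1 are genes that epithelial cells of the injured pancreas are known to express as acinar cells lose their secretory form and take on features of ducts. They were chosen by name from a table of 1457 genes, with earlier results of the same data known, and all 5 were in the table and passed the filter on low values. Messenger RNA was sequenced from whole pancreas of female C57BL/6 mice aged 8 weeks. A wild-type mouse given saline supplied 1 library, wild-type mice given caerulein supplied 2 (replicates 1 and 2), and mice lacking the microRNA miR-21 (miR-21-/-) and given caerulein supplied 2 (replicates 1 and 3). Caerulein mimics the hormone cholecystokinin and overstimulates acinar cells, which causes acute pancreatitis. It was injected repeatedly into the peritoneum at 50 µg/kg, with the pancreas collected 24 h after injections began. The labels give neither the construction of the miR-21-/- allele nor whether each library is a separate mouse, and there is no miR-21-/- saline library. If libraries shared a mouse, p-values would measure technical spread only.

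In acinar-to-ductal metaplasia, acinar cells shut down digestive enzyme genes and switch on keratins, adhesion receptors and other genes of ducts and of the embryonic pancreas. After a single bout of pancreatitis the change is usually reversed as the tissue regenerates, and it is studied because persistent metaplasia can precede pancreatic cancer. Keratin 8 (Krt8) builds the intermediate filaments of simple epithelia, and syndecan-1 (Sdc1) and CD44 (Cd44) are surface receptors for heparan sulfate-bound growth factors and for hyaluronan. S100A6 (S100a6) and annexin A10 (Anxa10) are calcium-linked proteins, the first a small calcium sensor and the second a member of the annexin family best known from stomach epithelium.

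All 4 caerulein libraries stood above saline for Krt8, Sdc1, Cd44 and S100a6, and 3 of 4 did for Anxa10. The table appears to have been assembled for that difference. Sorted by how far the mean of the wild-type caerulein libraries exceeds saline, its genes stand in order from first to last, with 0 exceptions (tolerance 0.001 on the log2 scale), and each gene differs at least 2.53-fold from saline in some caerulein library. The values of the 5 genes against saline are therefore given as a description without a test. In bulk tissue, fewer cells of a type and less RNA per cell cannot be told apart.

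The promoters of 3 of the genes are shown because these genes differ most in where their values stand: Sdc1 and Krt8 lay far above saline in every caerulein library, and Anxa10 was the 1 gene of the 5 listed at the lowest value in a caerulein library. Each is 300 bases from RefSeq on build GRCm38.p6, 250 before to 50 after the annotated start, and all 5 genes had an entry. Capitals mark TGANTCA (the letters bound by AP-1, the Jun and Fos family), TATAAA (the TATA box) and GGGCGG (bound by SP and KLF factors), each searched on both strands.
Anxa10 (chr8:62123144-62123443, minus strand): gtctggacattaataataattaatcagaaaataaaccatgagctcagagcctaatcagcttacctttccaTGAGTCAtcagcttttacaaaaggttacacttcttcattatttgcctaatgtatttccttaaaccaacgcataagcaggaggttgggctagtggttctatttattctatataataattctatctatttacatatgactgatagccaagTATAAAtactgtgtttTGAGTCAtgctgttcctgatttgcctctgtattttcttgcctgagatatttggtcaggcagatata
Sdc1 (chr12:8771146-8771445, plus strand): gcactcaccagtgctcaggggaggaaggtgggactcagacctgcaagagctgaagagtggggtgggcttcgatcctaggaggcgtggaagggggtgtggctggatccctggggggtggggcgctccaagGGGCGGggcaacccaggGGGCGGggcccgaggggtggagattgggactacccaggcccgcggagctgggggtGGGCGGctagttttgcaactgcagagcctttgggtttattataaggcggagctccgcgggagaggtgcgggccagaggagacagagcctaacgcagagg
Krt8 (chr15:102004293-102004592, minus strand): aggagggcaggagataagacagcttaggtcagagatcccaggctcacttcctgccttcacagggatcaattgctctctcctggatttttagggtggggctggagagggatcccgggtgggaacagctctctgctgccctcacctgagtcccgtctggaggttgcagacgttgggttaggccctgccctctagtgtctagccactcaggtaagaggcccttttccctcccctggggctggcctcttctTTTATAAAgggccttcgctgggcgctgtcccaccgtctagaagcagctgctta

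The Anxa10 window held TGANTCA at 2 places, 180 and 16 bases before the start (offsets -180 and -16), and TATAAA at offset -32. Of 27025 promoters of this length, 7.93% held TGANTCA at least once and 0.440% at least 2 times. Anxa10 was the 1 window of the 5 with a copy. Its bases were 34.3% G or C, below the median of 52.7% over all promoters, and 3.34% of promoters had a lower share.

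The Sdc1 window was 66.3% G or C and held GGGCGG at 3 places (offsets -121, -104 and -49), as 10.7% of promoters did at least 3 times. The Krt8 window was 58% G or C and held TATAAA on both strands in overlapping copies at offsets -3 and -1, where 14.2% of promoters held it at least once. The Cd44 window held GGGCGG once, at offset 4, a match found at least once in 35.9% of promoters, and the S100a6 window held none of the 3 motifs. Also searched on both strands were GGAATG (TEAD), GTGGGAA (RBPJ) and GGGTGG (another KLF-type box, which shares letters with GGGCGG). None of the 5 windows held the TEAD letters, which 14.6% of promoters held. The Krt8 window held GTGGGAA once (6.39% of promoters at least once) and GGGTGG 2 times (8.30% at least 2 times). The Sdc1 window held GGGTGG 4 times, where 30.9% of promoters held it at least once and 2.19% at least 3 times. These matches describe letters and not binding.

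Krt8 was 7.78 in saline. After caerulein it was 352.53 in wild-type replicate 1, 142.86 in wild-type replicate 2, 244.99 in miR-21-/- replicate 1 and 283.62 in miR-21-/- replicate 3, and further values of caerulein libraries follow that order. These are signal values as deposited, whose unit is not stated. The caerulein libraries lay 45.3, 18.4, 31.5 and 36.5 times above saline, in that order. Every caerulein library was far above saline, the lowest was wild-type replicate 2, and the miR-21-/- pair lay between the wild-type pair. A processed pseudogene, Krt8-ps, lies elsewhere in the GENCODE M21 annotation and a long noncoding gene, Gm36026, overlaps Krt8 on the other strand. Their reads may not have been told apart from those of Krt8.

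Sdc1 was 0.43 in saline, 85.79 and 36.72 in wild-type caerulein, and 71.34 and 69.07 in miR-21-/- caerulein. Its wild-type mean was 142 times the saline value and its miR-21-/- mean 163 times. Those ratios were the 12th and 8th highest among 896 tested genes with a saline value above 0.01, where the median ratio was 10.1 and 10.9. The miR-21-/- libraries differed 1.03-fold from each other and the wild-type libraries 2.34-fold, again with replicate 2 lowest.

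Cd44 was 1.07 in saline, 15.53 and 6.31 in wild-type caerulein, and 5.22 and 4.42 in miR-21-/- caerulein. Both miR-21-/- values lay below both wild-type values, by a narrow gap to wild-type replicate 2. The wild-type mean was 10.2 times saline, at the median of the 896 genes, and the miR-21-/- mean 4.50 times, a ratio below which 15.5% of those genes fell. GENCODE M21 lists 8 coding transcripts of Cd44, among them the variant-exon forms known from epithelia. The table gives 1 value for the gene, so the forms cannot be told apart.

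S100a6 was 0.64 in saline, 14.49 and 4.96 in wild-type caerulein, and 4.56 and 9.75 in miR-21-/- caerulein. The values formed a high pair, wild-type replicate 1 and miR-21-/- replicate 3, and a low pair, the other two, with 1 library of each genotype in each. The wild-type mean was 15.2 times saline and the miR-21-/- mean 11.2 times.

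Anxa10 was listed at 0.01, the lowest value in the files, in saline and in wild-type caerulein replicate 2. It was 12.32 in wild-type caerulein replicate 1 and 16.03 and 23.61 in the miR-21-/- libraries. Of the caerulein libraries the 2 miR-21-/- libraries were the highest, wild-type replicate 1 came next, and wild-type replicate 2 was at the lowest value. No fold is given against 0.01, since genes that nearly every cell uses, such as the splicing regulator Hnrnpf, are also listed there in saline, and the value may be a failed estimate.

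**Figure D1:**
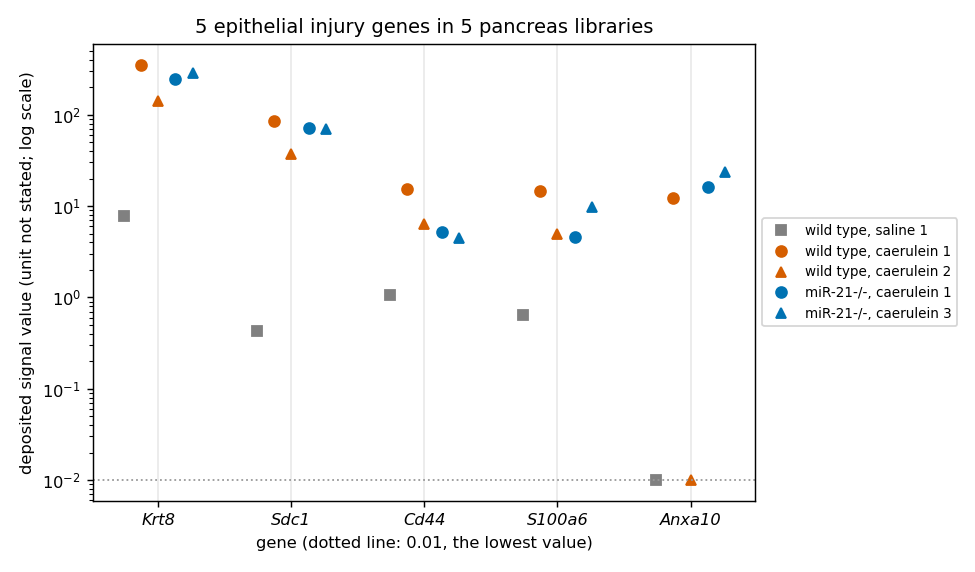
Deposited signal value (log axis, unit not stated) of the 5 genes in each of the 5 libraries; squares are saline, orange symbols wild-type caerulein and blue symbols miR-21-/- caerulein. Krt8, Sdc1, Cd44 and S100a6 lie above saline in all 4 caerulein libraries, and Anxa10 is at 0.01 in saline and in wild-type caerulein replicate 2.

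The libraries differed in ways that touch these values. Over the 1457 genes the values summed to 2818 in saline and to between 23255 (wild-type replicate 2) and 38628 (wild-type replicate 1) after caerulein. In saline 540 genes stood at 0.01, and in the caerulein libraries 31 to 89, the most in wild-type replicate 2. Wild-type replicate 1 was the highest of the 4 caerulein libraries for 43.7% of 1429 tested genes and for 4 of the 5 genes here. Wild-type replicate 2 was the lowest for 52.4% of tested genes and for Krt8, Sdc1 and Anxa10. A rank correlation across the tested genes (Spearman's rho, over genes and not over samples) reached 0.73 for wild-type replicate 1 with miR-21-/- replicate 3 and 0.74 for wild-type replicate 2 with miR-21-/- replicate 1, and lay at 0.35 to 0.45 for the other pairs. The labels give no batch. S100a6 and, by the order of its values, Krt8 had the first of these pairs above the second, and Sdc1, Cd44 and Anxa10 did not.

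For 4 of the 5 genes the spread among the caerulein libraries lay near or below the middle of the table. Anxa10, which ran from 0.01 to 23.61, is left out of this comparison because no ratio is formed with 0.01. The highest value was 2.34 times the lowest for Sdc1, 2.47 times for Krt8, 3.18 times for S100a6 and 3.51 times for Cd44, against a median of 3.18 over 1344 tested genes above 0.01 in all 4 libraries. A larger ratio was found in 70.2% of those genes than for Sdc1 and in 67.3% than for Krt8.

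The first comparison, wild-type caerulein against wild-type saline, asked what a day of pancreatitis changed. Both caerulein libraries were above saline for 4 of the 5 genes (Anxa10 tied at 0.01 in 1 of them), where 89.2% of the 1429 tested genes were higher in both. The table's selection makes such a share likely, so nothing is read from it. On the log2(value + 1) scale, which understates the change of low genes, the median difference was 2.55 for the 5 genes and 2.71 for all tested genes. Sdc1 stood 5.32 above saline and Krt8 4.68, that is 2.61 and 1.97 above the median gene. S100a6 (2.55), Cd44 (2.41) and Anxa10 (1.86) stood below the median. As a ratio to saline, however, S100a6 stood above the median (15.2 against 10.1 over the 896 genes above 0.01 in saline).

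For Cd44 and S100a6 the direction of the difference depends on the scale between libraries. Quantile normalization forces saline to match the caerulein libraries and took the median of tested genes to 0.07; Sdc1 and Krt8 were then still 2.61 and 1.92 above saline, while Cd44, S100a6 and Anxa10 were at -0.28, -0.15 and -0.36. With library sums made equal over all but the 20 most abundant genes (called equal sums below) the median was 0.82, and Cd44 again fell below saline, at -0.11. The quantile value of Anxa10 is not read as a direction. At 0.01 it was 1 of 540 genes in saline and 1 of 89 in wild-type replicate 2. Without wild-type replicate 1, Anxa10 was at 0.01 on both sides.

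The second comparison set miR-21-/- caerulein against the same wild-type saline library, so it differs in genotype as well as treatment and shares its reference with the first. All 5 genes were above saline in both libraries, where 94.2% of tested genes were. Sdc1 differed by 5.64, Krt8 by 4.91 and Anxa10 by 4.34 on the log2(value + 1) scale, against a median of 2.80 for all tested genes. S100a6 differed by 2.24 and Cd44 by 1.49, below that median. As a ratio to saline, S100a6 was near the median of the 896 genes above 0.01 in saline (11.2 against 10.9). With quantile normalization S100a6 and Cd44 took negative values (-0.47 and -1.28), as they did with equal sums (-0.04 and -1.09), while Anxa10 was at 1.76 and 3.93. On the deposited scale Anxa10 stood below the median gene of the table in wild type (1.86 against 2.71), where 1 of 2 caerulein libraries is at 0.01, and above it in the knockout. In wild type it stood above the median with equal sums (1.51 against 0.82) and without wild-type replicate 2 (3.72 against 3.19). It stayed below with quantile normalization (-0.36 against 0.07) and with a pseudocount of 0.1 (3.41 against 3.88). The same held without wild-type replicate 1 (0 against 2.32) and with caerulein libraries scaled by their median ratio (1.67 against 2.73).

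**Figure D2:**
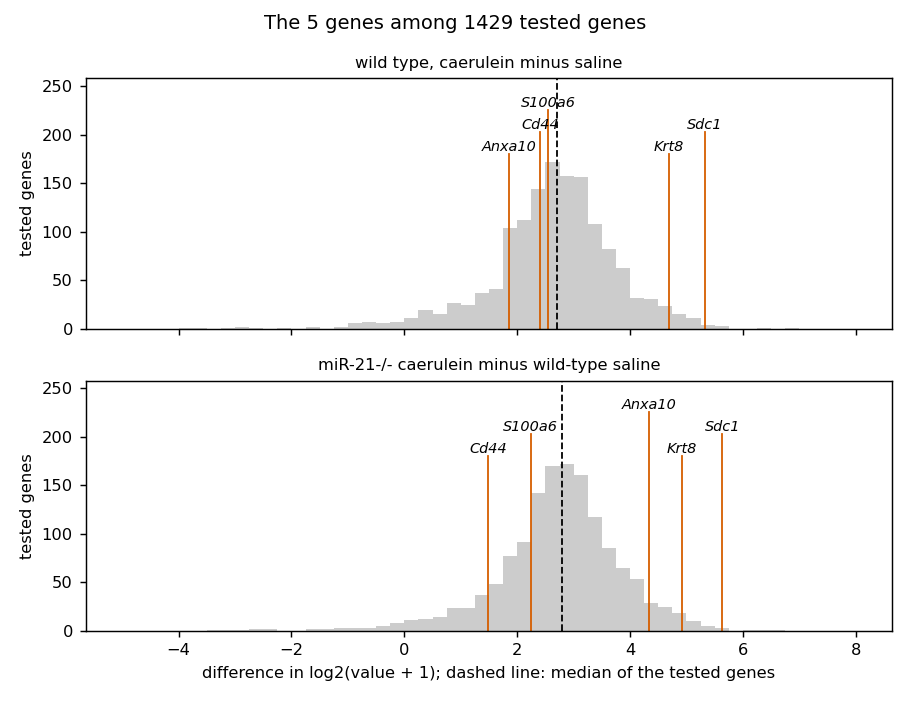
Histograms of the difference from saline in log2(value + 1) for 1429 tested genes, in wild-type (top) and miR-21-/- caerulein libraries (bottom), with the 5 genes as orange lines and the median as a dashed line. Sdc1 and Krt8 lie in the upper tail of both; Anxa10 lies at 1.86 in the upper panel and 4.34 in the lower.

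The third comparison, miR-21-/- against wild type with both given caerulein, asked whether the level of these genes differed without miR-21. Limma, fitted to all 5 libraries and adjusted by Benjamini-Hochberg over the 1429 genes, called none of the 5 genes and 0 genes in all (percentage called 0; 7 genes at an unadjusted p under 0.05). Each library was closest in rank correlation to 1 of the other genotype (0.73 and 0.74). With 2 libraries a group, 0 calls do not show equal levels. A change in response to caerulein and a difference present before it cannot be told apart, since no miR-21-/- saline library was analysed. The median log2 difference was 0.23 for the 5 genes and 0.10 for all tested genes.

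Anxa10 had the widest difference of the 5: 16.03 and 23.61 in miR-21-/- against 12.32 and 0.01 in wild type. Both knockout libraries were above both wild-type libraries. The log2(value + 1) difference was 2.48 (SE 0.96, unadjusted 95% interval 0.60 to 4.36), the 4th highest of 1429, and the limma adjusted p was 0.9997. Limma draws this SE largely from the spread of other tested genes of similar level. The interval therefore does not measure the spread of Anxa10 itself, whose wild-type values were 12.32 and 0.01. Earlier results of these data had already shown it among the smallest p-values, so its place is a description. Without wild-type replicate 2, the library at 0.01, the difference was 0.62 (limma adjusted p = 1), and without wild-type replicate 1 it was 4.34 (limma adjusted p = 0.02671), a call that compares the knockout with the single library at 0.01. Over the other settings run the limma adjusted p was 0.9988 to 1.

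Cd44 was the other gene whose groups did not overlap, at 5.22 and 4.42 in miR-21-/- and 15.53 and 6.31 in wild type. The wild-type mean was 2.27 times the knockout mean. The log2(value + 1) difference was -0.92 (SE 0.89; 95% interval -2.67 to 0.83; limma adjusted p = 0.9997), and 4.06% of tested genes had a lower one. The sign was negative under every setting run, from -1.51 without wild-type replicate 2 to -0.33 without wild-type replicate 1, and no setting gave a call. Groups that do not overlap were found for 2 of the 5 genes, 1 in each direction, and for 9.31% of tested genes (4.76% higher and 4.55% lower in the knockout). The 5 were chosen with these values known, so the counts are not compared further.

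For Krt8, Sdc1 and S100a6 the genotypes overlapped. Krt8 differed by 0.23 (95% interval -1.72 to 2.18), Sdc1 by 0.32 (-1.44 to 2.07) and S100a6 by -0.31 (-2.05 to 1.42), each with a limma adjusted p of 0.9997. Each interval reaches past a 2-fold change in both directions, so a change of that size was not excluded. The intervals, like that of Anxa10, rest largely on the spread of other tested genes. Leaving out a library turned the sign of all 3: Krt8 was -0.42 and Sdc1 -0.29 without wild-type replicate 2, and S100a6 was 0.38 without wild-type replicate 1 and 0.16 without miR-21-/- replicate 1.

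**Figure D3:**
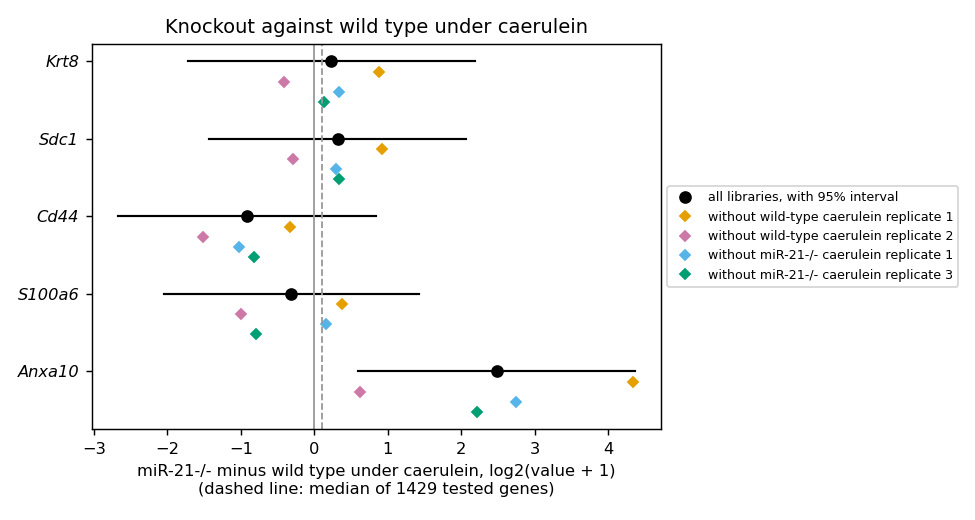
Difference between miR-21-/- and wild-type caerulein libraries in log2(value + 1) for the 5 genes, with all libraries (black points, bars the unadjusted 95% interval) and without each caerulein library (coloured diamonds). Anxa10 moves from 0.62 to 4.34 with the library left out, Cd44 is below 0 in each case, and Krt8, Sdc1 and S100a6 fall on both sides of 0.

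The mature miR-21 strand is shown because its seed (capitals, bases 2 to 8) sets which messages it can pair with.
mmu-miR-21a-5p (RefSeq, GRCm38.p6): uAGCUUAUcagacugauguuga
The DNA letters that pair with this seed, ATAAGCT, were absent from the longest annotated 3′ UTR of each of the 5 genes in GENCODE M21. Those UTRs were 242 bases long for Krt8, 2992 for Cd44, 92 for S100a6, 700 for Anxa10 and 1908 for Sdc1. Over 21007 genes with a 3′ UTR, 7.18% held the letters, as did 8.07% of 1339 tested genes that could be matched. Absence of the letters from these windows says nothing of pairing elsewhere.

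For each of the 5 genes the 5 tested genes with the most similar profile were found over the 5 libraries, by the root mean square difference of log2(value + 1) after subtracting each gene's mean. Krt8 lay nearest to Glrx3 (0.13), Ctss (0.16), a lysosomal protease of macrophages, Nudc (0.19), Aldoart2 (0.20) and Tgfbi (0.23), a secreted matrix protein, where the median over all tested genes was 1.004. Sdc1 lay nearest to Tgfbi (0.18), Mpeg1 (0.21), a pore-forming protein of macrophages, Krt8 (0.29), Glrx3 (0.31) and Tes (0.33). Glrx3 and Tes were listed at 0.01 in saline, where Krt8 was 7.78 and Sdc1 0.43. Their distances therefore rest in part on a value that may be a failed estimate. Krt8 and Sdc1 were thus among each other's closest profiles, Sdc1 being 9th of all tested genes for Krt8.

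Cd44 lay nearest to Atg5 (0.13), Gpr124, Lpl, Dnajb6 and Smarca4 (0.22), and S100a6 to Usp3 (0.13), Zfp706, Acin1, Rnf138 and Smarca2 (0.16). Atg5, an autophagy gene, was 0.84 in saline, 11.3 and 5.29 in wild-type and 4.09 and 2.78 in miR-21-/- caerulein, the same order as Cd44. Anxa10 had no comparably close neighbour. Rab3ip (0.40), D1Pas1, Cdc123 and Hnrnpf (0.66) were among its 5 nearest, these 4 listed at 0.01 in saline and at 0.01 to 0.80 in wild-type caerulein replicate 2. Aldoart2 and D1Pas1 have close paralogs between which short reads can be divided.

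Of 169 related symbols in 8 lists chosen for the families and processes of the 5 genes, 19 were among the genes analysed here. None of the 15 other keratins or 11 other annexins listed was among them. Limma called 11 of the 19 higher after caerulein in wild type, against 57.3% of all tested genes, and 12 of 19 in miR-21-/- against wild-type saline, against 60.3%. Both shares are near the background. These calls rest on 1 saline library and on a table that looks chosen by the same difference, so they are counted as a description. Values are printed for most of the 19 genes and plotted for all of them. None of the 19 was called lower in either (0% and 0.140% of tested genes), and none was called between genotypes. The median log2 difference between genotypes was 0.03 for the 19 and 0.10 for all tested genes. The calls against saline depended strongly on the libraries used. Leaving out 1 caerulein library moved their number among the 19 and also the share called over all tested genes. The change is therefore not read as a property of the 19.

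Among calcium-binding partners, S100a11, a relative of S100a6, was 12.11 in saline and 221.08 and 789.54 in wild-type and 611.2 and 206.35 in miR-21-/- caerulein. Its high pair was wild-type replicate 2 and miR-21-/- replicate 1, the libraries in which S100a6 was low. Cacybp, which encodes a protein that binds S100A6, was 1.47 in saline, 22.8 and 8.52 in wild type and 27.55 and 21.84 in miR-21-/-.

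Around Sdc1, 4 of 5 measured genes of the syndecan, glypican and heparan sulfate list were called higher than saline in each genotype, in a table where 57.3% and 60.3% of tested genes were. Sdcbp, the syntenin adaptor that binds syndecan tails, was 0.45 in saline, 90.04 and 18.35 in wild type and 28.6 and 53.74 in miR-21-/-. Sdc2, a second syndecan, Gpc3, a glypican, and Ext1, a heparan sulfate polymerase subunit, were the others. Ndst1, a heparan sulfate sulfotransferase, was not called, at 0.27 in saline, 6.84 and 12.24 in wild type and 4.01 and 3.14 in miR-21-/-, where both knockout values lay under both wild-type values.

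Of the CD44 list only Vcan, a hyaluronan-binding proteoglycan, and Ssfa2 were measured. Vcan was listed at 0.01 in saline and was 14.33 and 1.66 in wild-type and 8.54 and 9.17 in miR-21-/- caerulein, the lowest of the 4 in wild-type replicate 2. Its difference between genotypes was not called. Ssfa2 was at 0.01 in saline, 12.66 and 0.01 in wild-type and 1.03 and 8.64 in miR-21-/- caerulein.

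Of the epithelial surface list Cgn, a tight junction protein, was 1.10 in saline, 13.03 and 23.67 in wild type and 19.2 and 18.02 in miR-21-/-. Itga6, a laminin receptor subunit, and Lama5, a laminin chain, were not called against saline. Lama5 was 12.58 and 7.85 in wild type and 3.07 and 2.85 in miR-21-/- caerulein, a log2 difference of -1.47 that was not called. Among duct genes Ehf, an epithelial transcription factor, was 0.26 in saline, 16.71 and 9.78 in wild type and 9.39 and 15.28 in miR-21-/-. Bicc1, an RNA-binding protein of ducts, was 0.59 in saline, 16.08 and 25.33 in wild type and 34.08 and 10.91 in miR-21-/-. Other duct genes listed, Sox9 among them, were not analysed here.

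Of 5 measured stress and regeneration genes 2 were called higher than saline in each genotype, where 57.3% and 60.3% of tested genes were. Jun, a subunit of AP-1, whose letters occur in the Anxa10 window, was 2.01 in saline, 41.82 and 37.25 in wild type and 43.59 and 34.34 in miR-21-/-. Any part of AP-1 in the Anxa10 values was not tested. Atf3, a stress-induced relative of the AP-1 proteins, was 0.61 in saline, 12.07 and 6.76 in wild type and 12.89 and 14.53 in miR-21-/-. Gkn3, Cyr61 and Dmbt1, a gastrokine, a matricellular protein and a mucosal scavenger protein, were not called in either comparison.

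**Figure D4:**
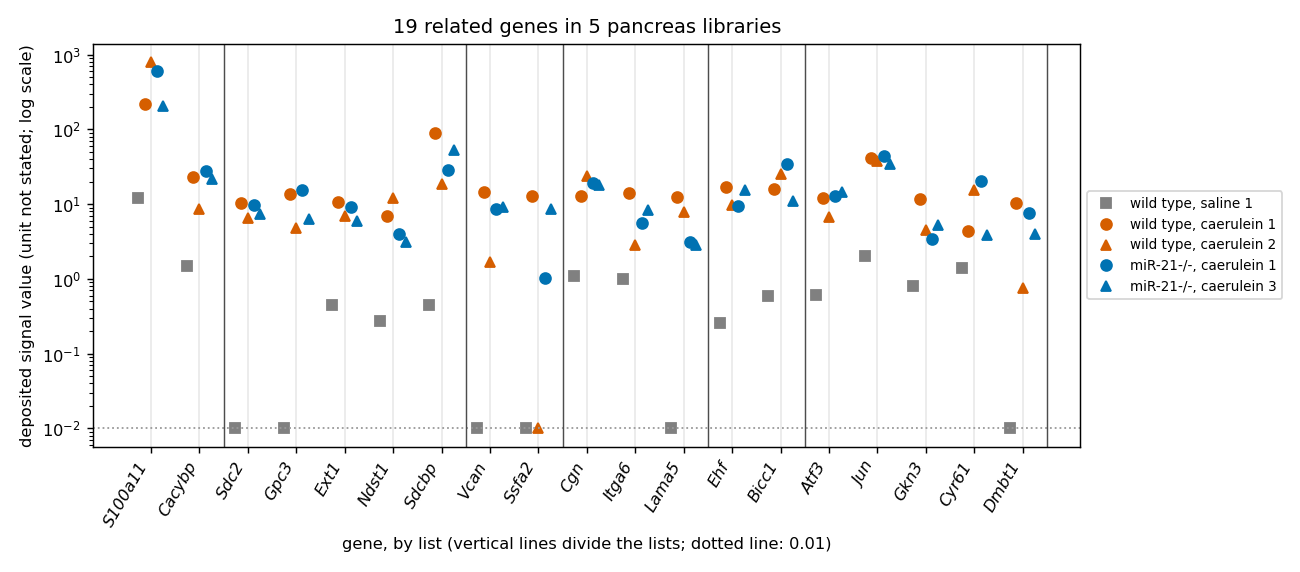
Deposited signal value (log axis, unit not stated) of the 19 related genes in each of the 5 libraries, with symbols as in the plot of the 5 genes and vertical lines between the lists (S100 partners, syndecans and heparan sulfate, CD44 partners, epithelial surface, ducts, stress and regeneration). All lie above saline except Ssfa2 in wild-type caerulein replicate 2, at 0.01, and S100a11 is high in the libraries in which S100a6 is low.

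Other cells of the pancreas can express these genes, Cd44 and S100a6 in leukocytes and fibroblasts and Sdc1 in plasma cells. The measured macrophage genes (7 of 22 listed, 3 at 0.01 in saline) summed to 3.17 in saline, 419 and 311 in wild-type and 389 and 363 in miR-21-/- caerulein. The 11 measured of 22 stellate cell and fibroblast genes, 6 of them at 0.01 in saline, summed to 2.84, 875 and 189, and 211 and 429 in the same order. Both sums were higher in every caerulein library than in saline, and the part of these cells in the values of the 5 genes was not tested.

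Of 14 plasma and B cell genes only Igj and Cd79a were measured, summing to 8.98 in saline, 57.7 and 4.58 in wild-type and 50.6 and 2.12 in miR-21-/- caerulein. Igj, which joins antibody chains, was 0.18 in saline, 51.75 and 0.77 in wild-type and 10.9 and 1.64 in miR-21-/- caerulein. The single mesothelial gene measured of 8, Upk3b, was 2.40 in saline, 15.63 and 1.01 in wild-type and 7.67 and 3.42 in miR-21-/- caerulein. The part of plasma cells in the Sdc1 values and of mesothelium in the Krt8 values was not tested.

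Of 40 acinar genes 4 were analysed. They come from a table that looks chosen by its difference from saline, so they cannot check the labelled tissue. Klk1 was 8.93 in saline, 562.8 and 22.23 in wild-type and 141.85 and 303.03 in miR-21-/- caerulein. Prss3, a trypsinogen, was 1.90 in saline, 384.9 and 6.97 in wild-type and 150.18 and 289.84 in miR-21-/- caerulein, and Prss1 was at 0.01 in all wild-type libraries. The 4 summed to 11.3 in saline, 983 and 38.5 in wild-type and 315 and 636 in miR-21-/- caerulein, lowest after caerulein in the library where Anxa10 was at 0.01. The part of acinar content in the Anxa10 values was not tested. Of the other lists of cell markers, the 10 T cell genes had no measured member, Csf3r for neutrophils (1 of 14) and Vwf for endothelium (1 of 10) were higher in all caerulein libraries than in saline, and the 2 measured of 12 islet genes summed to 25.9 in saline and 9.74 to 42.0 after caerulein. The 10 measured of 24 cell cycle genes, 6 at 0.01 in saline, summed to 6.16 in saline and 93.7 to 180 after caerulein.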

How the data were processed

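Per the labels' protocols, poly(A) RNA was fragmented and copied with random primers. Bowtie 0.12.2 and build mm8 are named in the submitters' processing notes; the steps from reads to gene values and the choice of genes are not stated there. The authors deposited 1 signal value per gene symbol and library, for 1457 genes and 1 blank row. Low values were searched for multiples of a single read, with and without transcript length, and none was found (score at most 0.481, where whole reads give 1), so depth is unknown. Values were used as deposited, as log2(value + 1). Genes at 1 or more in at least 2 libraries (1429) were fitted with limma 3.58.1 (R 4.3.3; trended, robust), 1 mean per group over 5 libraries, with 2 residual degrees of freedom from the caerulein groups, so saline is assumed to vary as they do. P-values were adjusted by Benjamini-Hochberg over the tested genes, with a threshold of 0.05, in each of 3 comparisons. The script was tested on simulated data.

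The 5 genes and all lists were chosen with earlier results of these data known. Named are the 5 genes, up to 6 measured members of each related list by mean value, the 5 nearest profiles of each gene, and up to 3 members of each marker list; 1 gene that this rule names is not reported here. Alternatives were other scalings, filters and a pseudocount, a fit without robustness, only the groups compared, and each caerulein library left out. Sequences are from RefSeq (GRCm38.p6) and UTRs from GENCODE M21, newer builds than mm8; no coordinates were converted. Python 3.11.15 was used.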

Additional observations from a re-analysis of the deposited data

How the results depend on the processing

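Between genotypes 0 genes were called under all settings but 1: leaving out wild-type replicate 1 gave 4 (range 0 to 4 over libraries left out). For wild-type caerulein against saline 819 genes were called, all higher. Quantile normalization gave 9, all lower, and equal sums without the 20 most abundant genes gave 267 (235 higher and 32 lower). The count was 488 among genes above 0.01 in all 5 libraries, 440 from the groups compared alone, and 377 to 1080 with a library left out. For miR-21-/- caerulein against saline the 863 called (861 higher and 2 lower) became 6 with quantile normalization, all lower, 241 with equal sums (219 higher and 22 lower) and 542 with genes above 0.01, and 29 to 1028 with a library left out. Against saline, Cd44 took the values -0.2792 and -0.1082 (wild type) and -1.279 and -1.089 (miR-21-/-) with quantile normalization and equal sums. S100a6 took -0.1541 (wild type, quantile) and -0.4725 and -0.03588 (miR-21-/-). Both settings scale saline towards the other libraries. Anxa10 took -0.3574 (wild type, quantile) but 1.506 with equal sums. It was 1 of 540 genes at 0.01 in saline and 1 of 89 in wild-type replicate 2. Its negative sign is not read as a direction. Without wild-type replicate 1 the wild-type difference of Anxa10 was 0, since saline and the remaining library are both at 0.01. Between genotypes the sign turned without wild-type replicate 2 for Krt8 (-0.418; up to 0.8792 with another library left out) and Sdc1 (-0.2857; up to 0.9165), and for S100a6 without wild-type replicate 1 (0.3754) or miR-21-/- replicate 1 (0.162), its lowest value being -1.003; the cause was not tested. The median-ratio scaling of caerulein libraries, the limit to genes above 0.01 and the counts of related genes with a library left out were chosen after seeing the data. No paired analysis was possible because the genotypes share 1 replicate number only. Depth is unknown and 2 libraries a group limit precision. With a library left out 1 degree of freedom remains, and the lone library is assumed to vary like the other group.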
